A study of Rattus norvegicus with 15 samples.

Results

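The insulin-like growth factor (IGF) system was described in H9c2 cells, a myoblast line from embryonic rat heart, through the rows of the count table whose gene symbol is on a list of 10 genes. The list holds the ligands Igf1 and Igf2, the receptors Igf1r and Igf2r, and the binding proteins Igfbp2, Igfbp3, Igfbp4, Igfbp5, Igfbp6 and Igfbp7. Rows were found for 8 of the 10 genes among 11574 in the table, and Igfbp2 and Igfbp3 were not analysed here. RNA of 15 cultures was sequenced, with 3 cultures in each of 5 groups. T0 cultures were harvested at day 0, before RA was given. T7-RA and T14-RA cultures were harvested at days 7 and 14, in medium whose serum had been lowered from 10% to 1%, with days counted from seeding in one description and under low serum in another. T7+RA and T14+RA cultures also received 1 µM all-trans retinoic acid (RA) dissolved in DMSO every day. The labels do not say whether cultures without RA received DMSO alone. All cultures were labelled wild type. The sample titles name H9c2 throughout, while the cell line field of the labels counts up from H9c2 to H9c14, and the cultures were taken here as this single line. The study calls the 3 cultures of a group biological replicates, without saying whether they were separate passages. Longer culture and lower serum cannot be told apart in any comparison with T0.

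IGF1 and IGF2 are secreted peptides that signal through the receptor tyrosine kinase IGF1R, which activates PI3K, AKT and mTOR and, in myoblasts, promotes growth, survival and fusion into myotubes. IGF2R, the cation-independent mannose 6-phosphate receptor, takes up IGF2 and delivers it to lysosomes together with lysosomal enzymes. The binding proteins hold IGFs in the extracellular space and either block or prolong their access to IGF1R. IGF2 is a ligand that differentiating myoblasts make themselves.

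The libraries held 508397 to 1030820 counts (median 666344), with a median of 22 counts for a gene in 1 library. Levels are given as counts per 1000000 after TMM scaling (CPM), as mean ± SD of 3 cultures, and changes as log2 differences with their SE from the edgeR quasi-likelihood test. A gene was called at a Benjamini-Hochberg adjusted p below 0.001 over all 11574 genes. Of 11 skeletal muscle markers, 9 had a row, and their summed level went from 279 to 325 CPM at T0 to 11110 to 11660 CPM in T14-RA, with 4813 to 5616 CPM in T14+RA. Of 8 cardiomyocyte markers only Gata4 and Actn2 had a row, with a summed level of at most 67.3 CPM in any culture, and Nkx2-5, Myh6, Tnni3, Nppa, Nppb and Ryr2 were not analysed here. Cardiac genes outside this list were not examined. In bulk RNA, fewer cells of a type and less RNA per cell cannot be told apart.

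In culture without RA, 6 of the 8 members were called between T0 and day 7. Igf1, Igf2, Igf2r, Igfbp4 and Igfbp5 rose and Igf1r fell, beside 8.78% of all genes called in that comparison (4.23% higher and 4.54% lower). The median change of the 8 members was 1.01 on the log2 scale, against 0.02 over all genes. With RA the members went in different directions, and at day 14 Igfbp5 and Igfbp6 were higher and Igf2, Igf2r and Igfbp4 lower than without it, beside 4.81% of all genes called (2.46% higher and 2.35% lower). Of these 5, limma on quantile-normalized counts called Igf2 and Igfbp4 only, and no tool but edgeR called Igfbp6. For Igf1, Igf2 and Igfbp5 the RA change itself differed between the 2 days, beside 0.743% of all genes at an adjusted p below 0.05 (0.285% with a positive and 0.458% with a negative difference). Limma on quantile-normalized counts called none of these 3 differences.

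**Figure D1:**
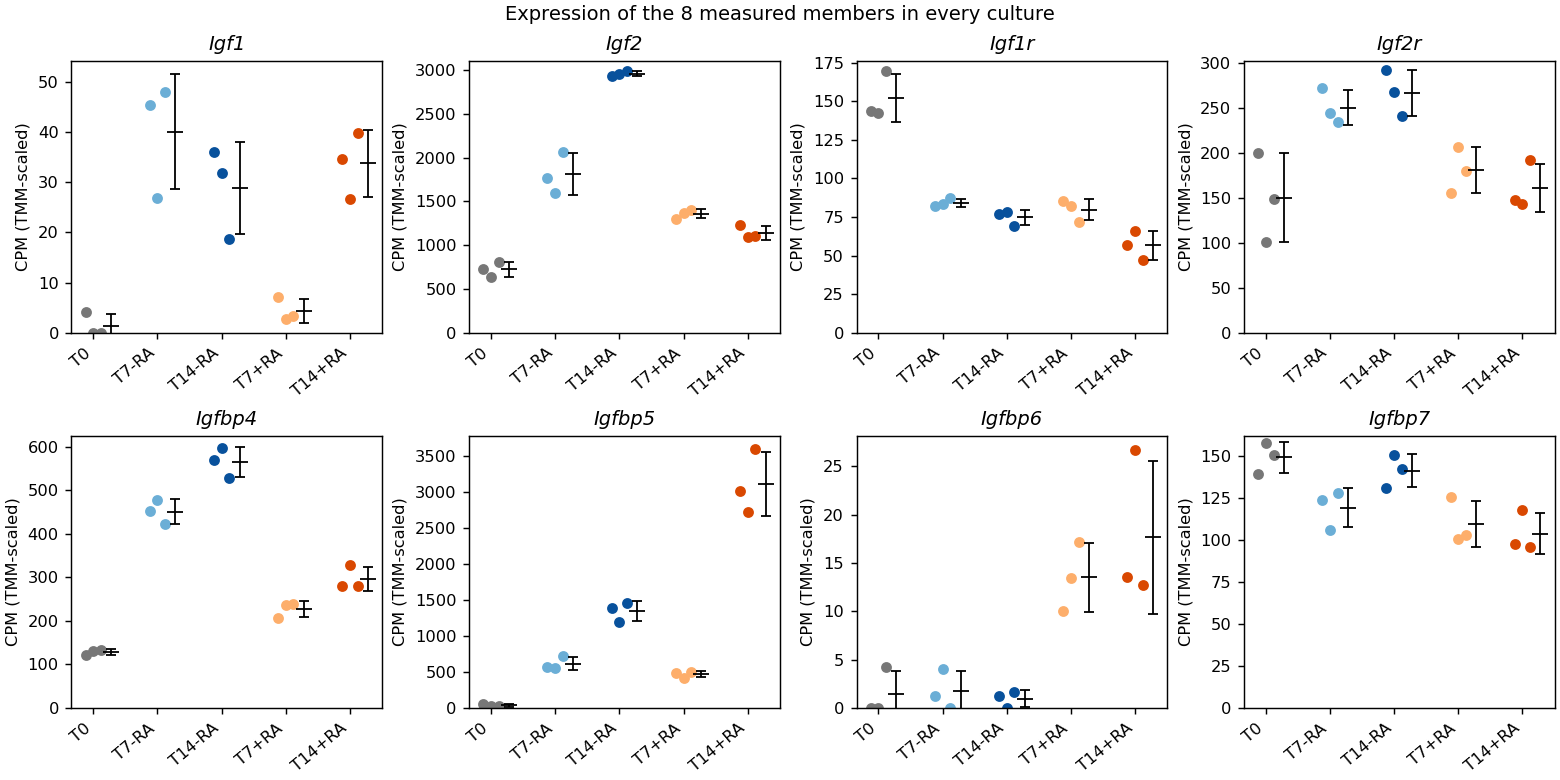
TMM-scaled CPM (vertical axis, linear, from 0, a separate scale in each panel) of the 8 measured IGF members in each of the 15 cultures, grouped by day and by RA (- or +). Points are cultures, and the bar beside each group is the mean ± SD of 3 cultures, drawn from 0 where it would go below it. Igf2 and Igfbp4 are highest in T14-RA, Igfbp5 in T14+RA, Igf1r at T0, and Igfbp6 in both groups with RA.

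The start-site windows of Igf1, Igfbp4, Igfbp5 and Igfbp6 are shown here because their RA changes took different courses; they were chosen after their values were seen. They come from RefSeq on build GRCr8, run from 250 bases before to 50 bases after the annotated start, and are written 5′ to 3′ on the strand of the gene. All 10 listed genes had a window there, Igf2 having 2. Capitals mark AGGTCA, the core hexamer of nuclear receptor sites, CAGCTG, an E-box of the kind bound by myogenic factors, TATAAA, and GTAAACA, a forkhead motif, each searched on both strands (TGACCT is AGGTCA read from the other strand).
Igf1, chr7:24172282-24172581, plus strand: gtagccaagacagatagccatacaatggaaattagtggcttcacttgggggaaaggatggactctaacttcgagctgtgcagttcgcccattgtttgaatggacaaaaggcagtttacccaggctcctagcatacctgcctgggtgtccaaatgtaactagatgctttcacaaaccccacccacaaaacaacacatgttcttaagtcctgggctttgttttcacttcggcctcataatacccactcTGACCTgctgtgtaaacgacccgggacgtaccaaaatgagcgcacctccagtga
Igfbp4, chr10:84491221-84491520, plus strand: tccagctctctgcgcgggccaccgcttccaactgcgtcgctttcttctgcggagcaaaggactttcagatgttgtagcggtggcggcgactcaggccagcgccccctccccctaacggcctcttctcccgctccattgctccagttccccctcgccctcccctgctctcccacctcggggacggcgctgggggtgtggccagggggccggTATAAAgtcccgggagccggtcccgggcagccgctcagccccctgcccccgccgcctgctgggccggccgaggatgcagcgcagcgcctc
Igfbp5, chr9:81914138-81914437, minus strand: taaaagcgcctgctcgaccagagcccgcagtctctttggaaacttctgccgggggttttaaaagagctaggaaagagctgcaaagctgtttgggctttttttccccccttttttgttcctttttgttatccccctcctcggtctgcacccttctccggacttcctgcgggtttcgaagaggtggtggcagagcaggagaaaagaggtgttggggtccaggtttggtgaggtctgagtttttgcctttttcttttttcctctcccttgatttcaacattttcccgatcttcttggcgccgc
Igfbp6, chr7:135154669-135154968, plus strand: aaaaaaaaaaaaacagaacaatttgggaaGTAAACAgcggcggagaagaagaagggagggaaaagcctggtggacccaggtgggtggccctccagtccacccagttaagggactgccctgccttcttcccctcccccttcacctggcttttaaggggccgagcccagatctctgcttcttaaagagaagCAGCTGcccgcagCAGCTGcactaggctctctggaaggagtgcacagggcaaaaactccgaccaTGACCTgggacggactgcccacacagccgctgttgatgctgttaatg

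AGGTCA occurred in the Igf1 window, from base -4 to 1 with the start site as 0, and in the Igfbp6 window, from base 3 to 8, both on the opposite strand. It occurred in none of the other 9 windows, and 16.2% of 33469 rat windows of the same length held it. Exact direct repeats of AGGTCA spaced by 5 or by 2 bases, a strict form of the DR5 and DR2 elements of retinoic acid receptors, were absent from the windows of all members. Only 0.00896% and 0.012% of all windows held them, so absence from 11 windows says little. Looser forms of these elements were not searched. The Igfbp6 window also held CAGCTG at -61 and at -48, a motif of 15.1% of windows, and GTAAACA at -221, a motif of 3.78%. TATAAA lay at -40 in the Igfbp4 window, and 4760 of the 33469 windows held it. The Igfbp5 window held none of these motifs and no CANNTG, the general E-box that includes CAGCTG and that 72.1% of windows held. A match is a description of letters only, and a window without one says nothing about sites elsewhere.

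Igf2 (ENSRNOG00000020369, band 1q41), which encodes an IGF made by myoblasts, was the abundant ligand in every culture. Its level was 731, 640 and 811 CPM in the T0 cultures. Without RA it was 1767, 1598 and 2067 CPM at day 7 and 2928, 2954 and 2985 CPM at day 14. With RA it was 1303, 1373 and 1400 CPM at day 7 and 1236, 1092 and 1100 CPM at day 14. The 5 groups did not overlap, in rising order T0, T14+RA, T7+RA, T7-RA, T14-RA, and the highest culture with RA stayed below the lowest culture without RA of either day. Without RA, Igf2 rose 2.49-fold in the first week (1.32 ± 0.10 on the log2 scale, edgeR adjusted p = 7.26e-18) and a further 1.63-fold in the second (0.71 ± 0.09, adjusted p = 1.23e-08 by edgeR).

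The RA change of Igf2 at day 14 was -1.37 ± 0.09 on the log2 scale (edgeR adjusted p = 2.01e-19), to 1143 ± 80.6 CPM from 2956 ± 28.5 CPM. At day 7 the change was -0.41 ± 0.09 (edgeR adjusted p = 0.000944), and 11 of the 15 edgeR fits that left out 1 library put this adjusted p above 0.001 (range over the 15 fits 0.000146 to 0.0621). The day 7 call was also lost with size factors by relative log expression (0.00108) or filterByExpr (0.00116) in edgeR, with DESeq2 (adjusted p = 0.00114) and with limma on quantile-normalized counts (adjusted p = 0.028), so that 9 of 24 alternatives kept it. Without T7-RA replicate 3 the day 7 change was -0.30 with an edgeR adjusted p of 0.0621. The change at day 14 minus that at day 7 was -0.95 ± 0.13 (edgeR adjusted p = 7.25e-07), which quantile-normalized limma did not call (adjusted p = 0.269). Between T7+RA and T14+RA, Igf2 changed by -0.25 ± 0.09, which was not called (edgeR adjusted p = 0.0774). In the same cultures the summed skeletal muscle markers were at 2829 to 3419 CPM without and 1538 to 1865 CPM with RA at day 7, and at 11110 to 11660 CPM without and 4813 to 5616 CPM with RA at day 14. The marker sum was lower with RA at both days, but with RA it was higher at day 14 than at day 7, where the mean of Igf2 was not. Most of this sum came from Myh3, Acta1 and Tnnt3. The means of Myog, Mymk and Chrna1 were also lower with RA at both days. At day 14 they were 569.5 against 638.4, 26.6 against 123.5 and 26.2 against 159.8 CPM. The other markers were mixed. Myod1 had a mean of 148.5 CPM with and 87.9 CPM without RA at day 7, and 65.0 and 80.2 CPM at day 14. Ckm had 8.31 CPM with and 13.0 CPM without RA at day 7, and 70.8 and 63.3 CPM at day 14. Des had 11.9 and 10.4 CPM at day 7, and 39.5 and 40.3 CPM at day 14. Their part in the Igf2 result was not tested.

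Igf1 (ENSRNOG00000004517, band 7q13), the other ligand and the main IGF of postnatal muscle, was present at low counts. The 3 T0 libraries held 3, 0 and 0 reads of it. Libraries without RA held 38, 20 and 33 reads at day 7 and 30, 18 and 11 at day 14. With RA there were 5, 2 and 2 reads at day 7 and 36, 17 and 22 reads at day 14. Both groups with few reads, T0 and T7+RA, overlapped each other and lay below all cultures of the other 3 groups, which also overlapped. Day 7 cultures thus stood at 40.1 ± 11.5 CPM of Igf1 without RA and 4.41 ± 2.38 CPM with it, and day 14 cultures at 28.9 ± 9.09 and 33.8 ± 6.63 CPM.

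Igf1 rose in the first week without RA (edgeR log2 change 4.40 ± 0.55, adjusted p = 1.92e-09), and the ratio of the summed counts, 91 against 3, was 23.2 with an exact 95% interval of 7.68 to 114.5 for counting error only. Without T0 replicate 1 the remaining T0 libraries held no read, and the fitted change was then 7.77, which is no bound. The RA change of Igf1 at day 7 was -3.12 ± 0.43 on the log2 scale (edgeR adjusted p = 5.95e-08), that is 9.04-fold lower by summed counts (exact 95% interval 4.56 to 20.4). The comparison with RA at day 14 gave 0.19 ± 0.30 (edgeR adjusted p = 0.799), with a 95% interval of the log2 change from -0.40 to 0.79. The difference between the 2 days was 3.32 ± 0.54 (edgeR adjusted p = 4.83e-05). In the cultures with RA, Igf1 rose from day 7 to day 14 by 2.88 ± 0.45 (edgeR adjusted p = 1.07e-06), beside 4.67% of all genes called (2.4% higher and 2.26% lower), while without RA it changed by -0.44 ± 0.29 over the same week (edgeR adjusted p = 0.468). Limma on quantile-normalized counts called neither the RA change at day 7 (adjusted p = 0.00106), nor the difference between the days (0.0513), nor the second-week rise with RA (0.00178).

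Igf1r (ENSRNOG00000014187, band 1q22), the signalling receptor for both ligands, was the only member called as lower between T0 and day 7. The T0 cultures had 143.5, 142.6 and 169.8 CPM. Cultures without RA had 82.3, 83.3 and 87.1 CPM at day 7 and 76.9, 77.9 and 69.4 CPM at day 14. With RA there were 85.5, 81.9 and 72.0 CPM at day 7 and 56.9, 66.0 and 47.1 CPM at day 14. All T0 cultures lay above all others and T14+RA lay below all others. Between them, T7+RA overlapped both T7-RA and T14-RA, which did not overlap each other. From T0 to T7-RA it fell 1.80-fold, a log2 change of -0.84 ± 0.16 (edgeR adjusted p = 3.27e-05). Limma on quantile-normalized counts did not call this fall (adjusted p = 0.00361). The T14+RA cultures did not overlap those of T14-RA (-0.39 ± 0.19, edgeR adjusted p = 0.203) or T7+RA (-0.49 ± 0.18, edgeR adjusted p = 0.0753), but neither difference was called.

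Igf2r (ENSRNOG00000014997, band 1q11), which clears IGF2, was called as higher between T0 and day 7 without RA. At T0 there were 200.0, 101.3 and 148.8 CPM. Without RA the values were 272, 245 and 234 CPM at day 7 and 292, 267 and 240.5 CPM at day 14. With RA they were 155, 207 and 180.0 CPM at day 7 and 148, 143 and 192 CPM at day 14. The cultures formed a lower set, with T0 and both RA groups overlapping, and a higher set, with both later groups without RA overlapping, and the sets did not meet. Igf2r rose by 0.71 ± 0.15 on the log2 scale in the first week without RA (edgeR adjusted p = 0.000391). Its RA change was -0.75 ± 0.15 at day 14 (edgeR adjusted p = 0.000172), and the day 7 change of -0.47 ± 0.15 was not called (edgeR adjusted p = 0.0337). Each of these 2 calls was lost in 4 of the 15 fits that left out 1 library. For the first week these were T0 replicates 2 and 3 and T7-RA replicates 1 and 2, and the change was 0.50 without T0 replicate 2 (edgeR adjusted p = 0.00569). For RA at day 14 they were replicates 1 and 2 of T14-RA and of T14+RA, with edgeR adjusted p up to 0.00653. The first-week rise was also not called by DESeq2 (adjusted p = 0.00129) or by limma on quantile-normalized counts (adjusted p = 0.0224), and the latter did not call the day 14 change with RA (adjusted p = 0.0474).

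Per length, the ratio of Igf1r to Igf2r was 1.54, 3.02 and 2.44 in the T0 cultures and 0.65, 0.73 and 0.80 in the T7-RA cultures. It was 0.602 ± 0.0331 in T14-RA, and with RA 0.962 ± 0.189 at day 7 and 0.780 ± 0.235 at day 14. The signalling receptor was thus the more abundant receptor transcript in each T0 culture and the less abundant one in each culture without RA at days 7 and 14. With 3 against 3 cultures an exact permutation test of a single ratio cannot give a p below 0.1, so these ratios are given without a test. The length used is a column of the deposited table whose origin is not stated, and the ratio of a gene to another depends on it.

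Igfbp5 (ENSRNOG00000017206, band 9q33), a binding protein that also attaches to extracellular matrix and is induced in differentiating myoblasts, went from a low level at T0 to one of the highest of the table. The T0 cultures held 53.8, 30.0 and 21.0 CPM of it. Without RA the level was 568, 554 and 716 CPM at day 7 and 1392, 1199 and 1461 CPM at day 14. With RA it was 487.5, 417.5 and 502 CPM at day 7 and 3013, 2722 and 3599 CPM at day 14. The 5 groups did not overlap, and with RA the gene lay below T7-RA at day 7 but above T14-RA at day 14. By level per length Igfbp5 ranked between 7289 and 9381 among the 11574 genes in the T0 cultures and between 76 and 156 in the T14+RA cultures.

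The summed counts of Igfbp5 were 65 at T0 and 6840 in T14+RA, a ratio of 82.1 after scaling (exact 95% interval 64.3 to 106.5, counting error only), and the ratio of T14-RA to T0 was 36.2. Without RA, Igfbp5 rose by 4.04 ± 0.19 on the log2 scale in the first week (edgeR adjusted p = 6.77e-17) and by 1.14 ± 0.12 in the second (edgeR adjusted p = 3.81e-08), when Igfbp5 and Igf2 were the 2 members called, both higher, beside 2.95% of all genes (1.87% higher and 1.09% lower). With RA, the second-week rise was 2.73 ± 0.13 (edgeR adjusted p = 6.77e-17). The RA change was -0.39 ± 0.13 at day 7, which was not called (edgeR adjusted p = 0.0695), and 1.20 ± 0.12 at day 14 (edgeR adjusted p = 2.41e-09). The difference between these RA changes was 1.59 ± 0.18 (edgeR adjusted p = 7.00e-07). With quantile-normalized limma the second-week rise without RA (adjusted p = 0.0208), the RA change at day 14 (0.0255) and the difference (0.192) were not called, nor was the second-week rise of Igf2 (0.0722).

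Igfbp4 (ENSRNOG00000010635, band 10q31), a binding protein known mainly as an inhibitor of IGF action that is cleaved by pappalysin, rose with culture and was lower with RA on both days. At T0 the level was 121, 131 and 134 CPM. Without RA it was 453, 478 and 423 CPM at day 7 and 569, 599 and 528 CPM at day 14. In the RA groups it was 207, 238 and 238 CPM at day 7 and 279.7, 328.5 and 281 CPM at day 14. None of the 5 groups overlapped, and all 6 cultures with RA lay between T0 and the cultures without RA. Igfbp4 rose 3.50-fold in the first week (1.81 ± 0.12 on the log2 scale, edgeR adjusted p = 3.79e-19). The RA changes at days 7 and 14 were -0.99 ± 0.11 and -0.94 ± 0.11 (edgeR adjusted p = 1.48e-10 and 1.79e-10), and their difference was 0.06 ± 0.15 with a 95% interval from -0.25 to 0.36 (edgeR adjusted p = 0.965). At day 7 with RA, Igf1, Igf2 and Igfbp4 were the members called by edgeR, all lower and Igf2 with the limits given above, beside 3.17% of all genes (1.87% higher and 1.3% lower).

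Igfbp6 (ENSRNOG00000010977, band 7q36), whose protein binds IGF2 more tightly than IGF1, was near the limit of detection without RA. The T0 libraries held 0, 0 and 2 reads, and those without RA 1, 3 and 0 at day 7 and 1, 0 and 1 at day 14. With RA there were 7, 10 and 10 reads at day 7 and 14, 17 and 7 at day 14. Every library with RA held more reads than every library without it, and in CPM the lowest with RA (9.98) was above the highest without (4.19). The summed counts differed 7.55-fold at day 7 (27 against 4, exact 95% interval 2.63 to 29.7) and 17.0-fold at day 14 (38 against 2, exact 95% interval 4.39 to 145), for counting error only.

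The edgeR change of Igfbp6 with RA was 2.80 ± 0.70 at day 7, which missed the threshold (adjusted p = 0.00417), and 3.88 ± 0.76 at day 14, which was called (adjusted p = 0.000108). Igfbp6 passed the authors' filter of more than 20 summed counts only through its libraries with RA. The T0, T7-RA and T14-RA groups held 2, 4 and 2 reads in sum. Its calls with RA are thus descriptions of a gene that those libraries let into the table. With filterByExpr, Igfbp6 was not among the genes tested. The day 14 call was lost without T14-RA replicate 1 or 2 or T14+RA replicate 2 (edgeR adjusted p up to 0.00291). DESeq2 (adjusted p = 0.00805) and limma-voom (adjusted p = 0.00175) did not call Igfbp6 at that day either, nor did quantile-normalized limma (adjusted p = 0.00171). The difference of the RA changes between days was 1.08 ± 1.28, with a 95% interval from -1.43 to 3.60, so the depth of these libraries cannot say whether the RA response of Igfbp6 grew with time (edgeR adjusted p = 0.908). Averaged over both days in the additive model, the change with RA was 3.28 ± 0.51 (edgeR adjusted p = 1.02e-06), with the same limit from the filter.

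Igfbp7 (ENSRNOG00000002050, band 14p11), a distant relative that binds IGFs weakly and insulin as well, moved least. The level was 139, 158 and 151 CPM in T0 cultures. Without RA it was 124, 106 and 128 CPM at day 7 and 131, 150.5 and 142 CPM at day 14. With RA it was 125, 101 and 103 CPM at day 7 and 97.4, 118 and 96.1 CPM at day 14. T0 and T14-RA overlapped and lay above the other 3 groups, which overlapped as well. Igfbp7 had 0 calls in 9 comparisons by edgeR, DESeq2 and both limma fits, with 3 at an unadjusted edgeR p below 0.05, and its largest RA change was -0.44 ± 0.15 at day 14 (edgeR adjusted p = 0.0428, 95% interval -0.74 to -0.15).

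**Figure D2:**
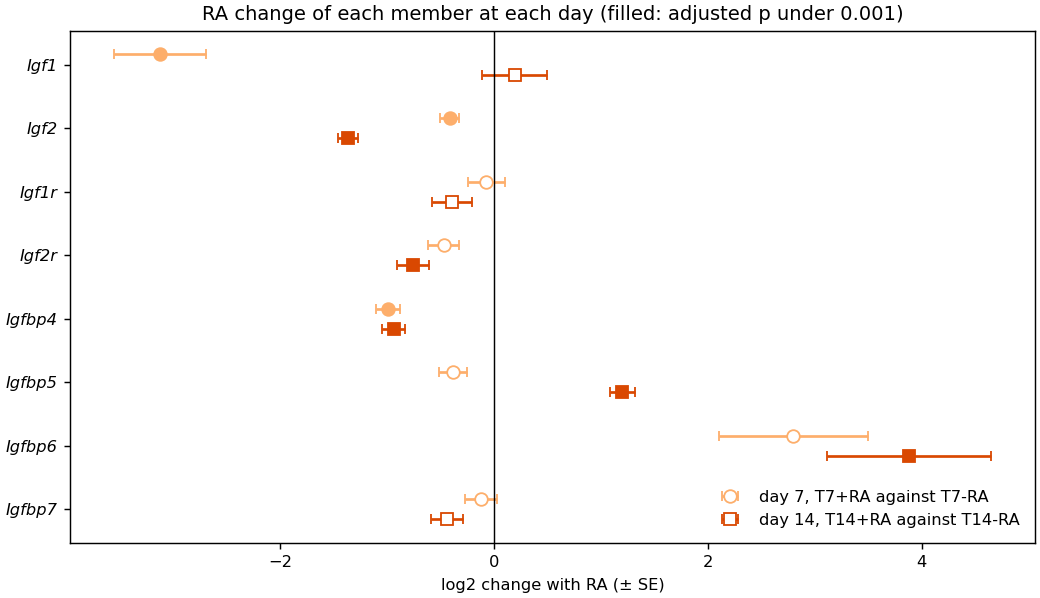
Log2 change with RA (horizontal axis, ± SE from the edgeR fit) of each measured IGF member at day 7 (circles, T7+RA against T7-RA) and day 14 (squares, T14+RA against T14-RA), with filled symbols for an adjusted p below 0.001. Igf1 has its change at day 7 only (-3.12 against 0.19), Igfbp5 changes sign between the days (-0.39 and 1.20), and Igfbp4 has nearly the same value on both (-0.99 and -0.94).

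Counting cultures rather than calls, 6 of the 8 members did not overlap between T7-RA and T7+RA, where 24.4% of all genes did not, and 7 of the 8 did not overlap between T14-RA and T14+RA, where 27.2% of all genes did not. Between T0 and T7-RA the count was 7 of 8 (33.3% of all genes). It was 5 of 8 for the second week without RA (25.7% of all genes) and 5 of 8 for the second week with RA (28% of all genes). The comparisons share groups, so these counts are not independent of each other.

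Taken per length, the binding protein transcripts changed in composition. Igfbp7 made up 67.0 ± 1.37% of the summed level of the 4 measured binding proteins at T0, and Igfbp4 29.3 ± 0.509%. Without RA, Igfbp4 made up 49.2 ± 4.09% at day 7 and 42.0 ± 2.84% at day 14. Igfbp5 made up 2.99 ± 1.60% at T0 and, without RA, 24.7 ± 3.06% at day 7 and 37.2 ± 3.57% at day 14. In T7+RA the shares were 35.3 ± 3.49% for Igfbp4, 33.5 ± 3.76% for Igfbp7 and 26.9 ± 1.65% for Igfbp5, the last close to its share at day 7 without RA. In T14+RA the share of Igfbp5 was 69.1, 62.1 and 72.9% in the 3 cultures, that of Igfbp4 was 17.6 ± 2.45% and that of Igfbp7 12.2 ± 2.00%. A share can be lower while a level is not, and the level of Igfbp4 per length was higher in T14+RA than at T0. Igfbp6 reached at most 5.27% of the pool, in a T7+RA culture. Igfbp7 was thus the largest component in each T0 culture, Igfbp4 in the means of T7-RA, T14-RA and T7+RA, and Igfbp5 in each T14+RA culture.

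Among the ligands Igf2 made up at least 92.0% of the summed level per length in every culture. The sum of the 4 binding proteins relative to the sum of both ligands was 1.16, 1.46 and 1.14 at T0. Without RA it was 1.00, 1.12 and 0.89 at day 7 and 0.92, 0.91 and 0.92 at day 14, and with RA 1.03, 0.93 and 0.97 at day 7 and 2.53, 2.90 and 3.16 at day 14. The T14+RA cultures thus stood apart from the other 12. Their binding protein sum was 1546 ± 175 in units of level per length, against 1254 ± 28.7 in T14-RA, while the ligand sum was 541 ± 51.0 against 1363 ± 23.6. These ratios compare transcripts, not secreted protein, and Igfbp2 and Igfbp3 are not in them.

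**Figure D3:**
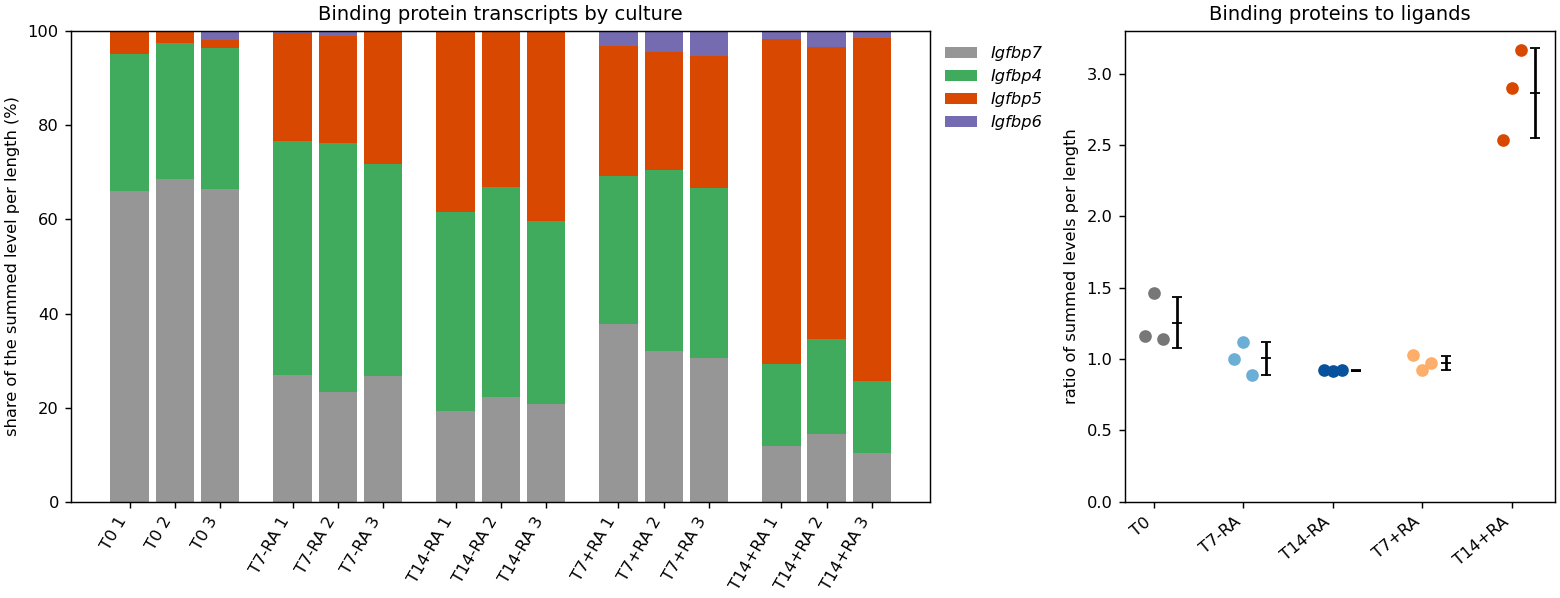
Left, share (vertical axis, percent) of Igfbp7, Igfbp4, Igfbp5 and Igfbp6 in their summed level per length, 1 bar for each of the 15 cultures. Right, ratio of the summed level of the 4 binding proteins to that of Igf1 and Igf2, with points for cultures and bars for mean ± SD of 3 cultures, where T14+RA lies at 2.53 to 3.16 and the other groups between 0.89 and 1.46.

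In the additive model, which fits a T7, a T14 and a single RA term to all 15 libraries, 5 members were called for T7 (beside 8.73% of all genes, 4.29% higher and 4.44% lower) and the same 5 for T14 (beside 17.3%, 8.47% higher and 8.85% lower). Igf2, Igf2r, Igfbp4 and Igfbp5 rose and Igf1r fell in both. The T14 changes were 1.81 ± 0.22 for Igf2, 0.74 ± 0.15 for Igf2r, 2.15 ± 0.12 for Igfbp4, 5.60 ± 0.53 for Igfbp5 and -1.09 ± 0.16 for Igf1r. For RA, Igfbp6 rose, with the limit from the filter given above, and Igf2r (-0.61 ± 0.11) and Igfbp4 (-0.96 ± 0.08) fell. These calls stood beside 6.39% of all genes (3.33% higher and 3.07% lower). Igf1, Igf2 and Igfbp5, whose RA change differed between days, were not called for the single RA term (edgeR adjusted p = 0.278, 0.00133 and 0.321). Igf2 was called as lower for that term in 10 of 24 alternatives, among them DESeq2 (adjusted p = 8.84e-07) and limma-voom (adjusted p = 6.95e-09). The T7 calls of Igf2 and Igfbp5 were lost when any T0 library was left out (adjusted p up to 0.00214 and 0.0029 by edgeR), that of Igfbp5 also without T7-RA replicate 2, and that of Igf1r without T0 replicate 3 (0.00137). Those of Igf2 and Igfbp5 were also lost with the replicate block (edgeR adjusted p = 0.00101 and 0.00118). The T7 call of Igf2r was lost without T0 replicate 2 or 3, and its T14 call without T0 replicate 2 or T14-RA replicate 1. Limma on quantile-normalized counts called Igf2r for none of the 3 terms (adjusted p = 0.00865 for T7, 0.00491 for T14 and 0.0151 for RA) and did not call Igf1r for T7 (0.0046). Igf1, with an edgeR T14 change of 4.52 ± 1.12 (adjusted p = 0.00723), was called as higher for T14 by DESeq2 (adjusted p = 7.33e-05) and by quantile-normalized limma (adjusted p = 0.000776).

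Over the 15 libraries, log2 CPM of Igfbp5 and Igf1r had a Pearson correlation of -0.97, and that of Igf2 and Igfbp4 0.92. Among the 8379 genes with a mean count of at least 10, those most like Igf2 were Stac3 (0.948) and Mymx (0.939), both needed for skeletal muscle function or fusion, and Bcar3 (0.936). Those most like Igfbp5 were Tpp1 (0.994) and Ctsd (0.986), which encode lysosomal proteases, and Tceal7 (0.986). For Igfbp4 they were Slc29a1 (0.961), a nucleoside transporter, Nsdhl (0.961), an enzyme of cholesterol synthesis, and Pls3 (0.953). For Igf2r they were Mvk (0.899), the mevalonate kinase, Steap3 (0.899) and Orai2 (0.893), and for Igfbp7 Ahrr (0.878), Zfp335 (0.869) and Orai1 (0.845). The libraries fall into 5 groups of 3, so these coefficients describe the group pattern and carry no p. Stac3 had 1.09 CPM at T0, 56.8 CPM in T14-RA and 9.06 CPM in T14+RA, and Ctsd 851, 2213 and 3098 CPM.

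Of 55 further genes of the pathway, on 8 lists from receptor adaptors to IGFBP proteases, 48 had a row. For T7, 3 were higher and 4 lower (14.6%), for T14, 6 higher and 5 lower (22.9%), and for RA 4 higher and none lower (8.33%), against 8.73%, 17.3% and 6.39% of all genes. By edgeR, 9 of the 48 were lower with RA at an unadjusted p below 0.05, and DESeq2, limma-voom and limma on quantile-normalized counts also called 0 of them at the adjusted threshold. With scaling by library size only, with a minimum of 10 counts in every library, with the replicate block, and without T0 replicate 2 or 3, T14-RA replicate 2 or T14+RA replicate 3, edgeR called 1 of them as lower. At an adjusted p below 0.05 it called 8 lower and 9 higher. In total 34 of the 48 were not called for any term.

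The 4 genes called for RA were Irs1, Pik3r1, Pik3cb and Fbxo32. Irs1, the adaptor that links IGF1R to PI3K, had 28.3 ± 3.29 CPM at T0, 22.5 ± 6.34 and 57.6 ± 8.39 CPM without and with RA at day 7, and 21.4 ± 1.97 and 63.6 ± 17.7 CPM at day 14 (RA change 1.43 ± 0.18, edgeR adjusted p = 9.64e-09). Pik3r1, the regulatory subunit p85 alpha of PI3K, rose from 30.6 ± 8.21 to 120.6 ± 10.8 CPM at day 7 and from 35.8 ± 4.96 to 109 ± 5.28 CPM at day 14 (1.79 ± 0.15, edgeR adjusted p = 2.29e-15). Pik3cb, a catalytic subunit with 119 counts over all libraries, had 13.0 ± 5.67 CPM at T0, 4.99 ± 3.25 and 22.9 ± 4.12 CPM without and with RA at day 7, and 3.56 ± 3.54 and 12.8 ± 3.15 CPM at day 14 (RA change 2.07 ± 0.36, edgeR adjusted p = 1.24e-05). At day 14 with RA it was thus near its T0 level, and the RA change at day 14 alone was not called (edgeR adjusted p = 0.0223). Irs2, the second adaptor of this kind, was instead lower with time (-0.75 ± 0.16 for T7 and -1.10 ± 0.16 for T14). Of the 9 genes of the receptor and adaptor list no others were called for the T7, T14 or RA term. Grb10, an adaptor that restrains signalling by IGF1R, just missed the threshold for RA (-0.38 ± 0.09, edgeR adjusted p = 0.00103) and passed it for RA at day 7 alone (-0.56, edgeR adjusted p = 0.00023). Insr, the insulin receptor, had an RA change of 0.32 ± 0.14 (edgeR adjusted p = 0.131).

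With time, Akt1 fell (-0.63 ± 0.11 for T7 and -0.73 ± 0.11 for T14), as did the catalytic subunit Pik3cd (-1.26 ± 0.23 and -2.11 ± 0.25). Pik3r2, another regulatory subunit, rose for T14 (0.85 ± 0.18). On the mTOR list of 11 genes only Deptor, an inhibitor of mTOR, was called, and it rose (1.04 ± 0.20 and 1.46 ± 0.20). The 5 measured FoxO and GSK3 genes had 0 calls for each term by edgeR, DESeq2 and both limma fits, with 2 of the 5 at an unadjusted edgeR p below 0.05 for each term, and Foxo1 had an RA change of -0.84 ± 0.25 (edgeR adjusted p = 0.0136).

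The 2 muscle ubiquitin ligases that FoxO factors are known to drive both rose for T14. Trim63 rose by 3.10 ± 0.36 and Fbxo32 by 1.86 ± 0.36, and Fbxo32 also rose with RA by 1.08 ± 0.20 (edgeR adjusted p = 3.69e-05), to 94.1 ± 16.1 CPM in T14+RA against 39.1 ± 11.0 CPM in T14-RA. Of the genes that act on binding proteins, Htra1, a secreted protease that cleaves Igfbp5, was abundant and fell slightly for T14 (-0.47 ± 0.09), and Pappa had no row. Igf2bp1, which binds Igf2 mRNA, fell for T7 and T14 (-1.12 ± 0.25 and -1.14 ± 0.25). Jak2, the kinase of the growth hormone receptor, rose (1.15 ± 0.19 and 1.35 ± 0.19), while Ghr, Socs2, Igfals and Igfbp1 had no row.

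**Figure D4:**
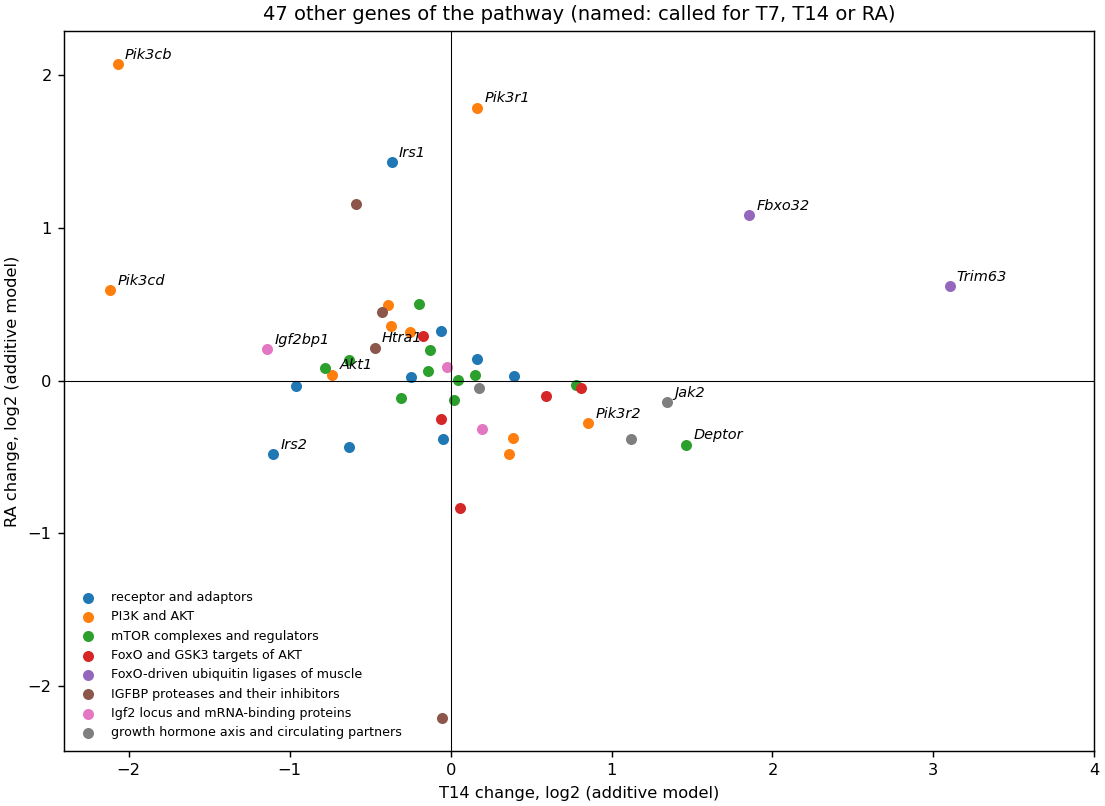
Log2 change for T14 (horizontal axis) and for RA (vertical axis) in the additive edgeR model of 47 of the 48 other pathway genes with a row, coloured by list, with names for the 13 of them called for T7, T14 or RA. Pik3cb, Pik3r1, Irs1 and Fbxo32 are the 4 called for RA, and Trim63 (3.10) and Pik3cd (-2.11) have the largest T14 changes among the called genes.

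Markers of other cell types moved with the groups as well. The 4 smooth muscle markers (Acta2, Myh11, Tagln and Cnn1) summed to 15230 to 16810 CPM at T0, 3856 to 5303 CPM without and 4715 to 5273 CPM with RA at day 7, and 3334 to 3443 CPM without and 3985 to 4790 CPM with RA at day 14. Most of this sum was Acta2 and Tagln. Acta2, Tagln and Cnn1 had lower means in every later group than at T0. Myh11 differed, with means of 10.0 CPM at T0, 7.8 CPM in T7-RA, 7.7 CPM in T7+RA, 13.2 CPM in T14-RA and 9.95 CPM in T14+RA. Of 5 fibroblast markers 4 had a row, summing to 24630 to 37560 CPM at T0 and 18450 to 25740 CPM later, most of it Col1a1. Dcn went from 0 CPM at T0 to 50.5 CPM in T14-RA and 120 CPM in T14+RA. Lum and Thy1 were instead lower with RA at day 14, with 28.5 and 270.4 CPM in T14-RA and 6.24 and 179.6 CPM in T14+RA. Endothelial markers were limited to Tek, at most 6.29 CPM, and no leukocyte marker had a row. Their part in the changes of Igf1r, Igfbp5 and the other members was not tested.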

How the data were processed

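Stranded mRNA libraries (TruSeq) of 15 H9c2 cultures were sequenced as paired ends on a MiSeq. The authors processed the reads on Galaxy, aligned them with HISAT2, assigned them to genes with featureCounts, and the submitters' processing notes name build Rnor 6.0. Tool versions, the annotation release and the strand setting are not given in the sources used here, so reads shared by overlapping genes cannot be assigned with certainty. The deposited values are unnormalized counts, and the authors kept genes whose sum across libraries exceeded 20 (the smallest is 21). Groups and replicate numbers came from the sample labels.

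Counts were fitted with edgeR 4.0.16 in R 4.3.3 (TMM scaling, factors 0.938 to 1.03; robust quasi-likelihood F test) over all 11574 genes, once with T7, T14 and RA terms, the study's model, and once with 5 group means. Calls used a Benjamini-Hochberg adjusted p below 0.001, or below 0.05 for the difference between days. The SE is the absolute log2 change divided by the square root of F, and 95% intervals of changes are normal intervals from it. The biological coefficient of variation was 8.84%. Level per length is the count divided by the length column of the table, scaled to the same total in every library. Ratios of summed low counts have exact conditional 95% intervals, which cover counting error only, as the reads carry no molecular identifiers. Replicates of a group differed by more than sampling noise (chi-square per gene at least 1.07, largest p = 2.31e-07) and were kept as separate samples.

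Alternatives were 2 other scalings (size factors by relative log expression, or library size alone), 2 filters (filterByExpr, or a minimum of 10 counts in each library), DESeq2 1.42.0, limma-voom and limma 3.58.1 on quantile-normalized log2(count + 1), the other threshold, a replicate block, and fits without 1 library each. The fits were tested on simulated data. The members and gene lists were chosen with earlier results of these data known. Genes named are the members, the pathway genes called for T7, T14 or RA, the markers, and for the 5 members with most counts the 3 genes with the highest correlation; Insr, Grb10 and Foxo1 were named after their values were seen, and 1 pathway gene enters the counts only and is otherwise not reported here. Coordinates of windows are those of GRCr8 and were not converted.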

Additional observations from a re-analysis of the deposited data

Results flagged for a closer look

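The RA change of 3 members differed between day 14 and day 7 in the direct edgeR quasi-likelihood test of that difference, with Benjamini-Hochberg adjustment over all genes. For Igf1 the difference was 3.32 on the log2 scale (adjusted p = 4.83e-05 by edgeR), with 9 reads in the 3 T7+RA libraries and at least 17 in each T14+RA library. For Igf2 it was -0.95 (adjusted p = 7.25e-07 by edgeR), with all 3 T14+RA cultures below all 3 T7+RA cultures and all 3 T14-RA cultures above all 3 T7-RA cultures. For Igfbp5 it was 1.59 (adjusted p = 7.00e-07 by edgeR), with the cultures with RA below those without at day 7 and above them at day 14. Limma on quantile-normalized counts gave the same directions, with adjusted p of 0.0513 for Igf1, 0.269 for Igf2 and 0.192 for Igfbp5. The direction of each difference was the same in all 15 fits that left out 1 library, and the highest adjusted p among these edgeR fits was 0.00162 for Igf1, 3.63e-05 for Igf2 and 6.61e-06 for Igfbp5.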

How the results depend on the processing

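Of 72 changes of members, 34 were called; all 34 kept their direction and 15 kept their call under every alternative run. Limma on quantile-normalized log2(count + 1) called fewer members, 3 instead of 5 for T7, 4 instead of 6 for T7-RA against T0 (losing Igf1r and Igf2r), 0 instead of 2 for T14-RA against T7-RA (3 at an unadjusted p below 0.05; DESeq2 and limma-voom called 2), 1 instead of 2 for T14+RA against T7+RA, 1 instead of 3 for RA at day 7, 2 instead of 5 for RA at day 14 and 0 instead of 3 for the difference between days (3 at an unadjusted p below 0.05; DESeq2, which gave no adjusted p for Igf1 and Igfbp6, called 2 and limma-voom 3). It called 2, 5 and 2 pathway genes for T7, T14 and RA, against 7, 11 and 4. The cause was not tested. An adjusted p of 0.05 called 5 members for RA at day 7 and 12, 18 and 17 pathway genes. With at least 10 counts in every library, Igf1 and Igfbp6 were not among the genes tested and 1 member was called for T14+RA against T7+RA. Leaving out 1 library gave 1 to 5 members for T7 (3, 2 and 1 without T0 replicate 1, 2 and 3) and 3 to 5 for RA at day 14 (3 without T14-RA replicate 1 or 2 or T14+RA replicate 2).

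The replicate block called 3 members for T7, losing Igf2 (adjusted p = 0.00101 by edgeR) and Igfbp5 (0.00118 by edgeR), and changed no other call of a member. The numbers were treated as names only in the main fit, since not every same-numbered pair had a correlation over 0.1. A modest shared effect could miss that bar, so it does not show that the numbers carry no pairing. Deviations of same-numbered libraries had a mean correlation of 0.0617 (8 of 30 pairs over 0.1), and 9 of 15 libraries correlated best with their own number. That is a hint from the data and not from the design. The mean for different numbers was -0.0308 (2 of 60 pairs over 0.1). As deviations were taken from group means, it follows largely from the mean for same numbers and is no separate observation.

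Directions turned only where no change was called. For Igfbp6 under quantile-normalized limma they were -0.48 for T7, -0.52 for T14 and -0.31 for T7-RA against T0. Without 1 library, Igfbp6 ranged from -0.60 to 3.03 for T7, -0.31 to 3.27 for T14, -0.68 to 3.44 for T7-RA against T0, -1.20 to 0.51 for T14-RA against T7-RA, -0.0231 to 0.577 for T14+RA against T7+RA and -0.13 to 1.55 for the difference. Likewise Igf1 ranged from -0.0197 to 0.417 for RA at day 14, Igfbp4 from -0.0294 to 0.102 for the difference and Igfbp7 from -0.185 to 0.0231 for T14+RA against T7+RA. Under library size alone the median change of all genes was 0.13 for T7 and 0.15 for T14, against 0.02 and 0.05 with TMM.

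Over all genes, edgeR called 1010 for T7, 2004 for T14, 740 for RA, 1016 for T7-RA against T0, 342 for T14-RA against T7-RA, 540 for T14+RA against T7+RA, 367 and 557 for RA at days 7 and 14, and 86 for the difference. In that order, quantile-normalized limma called 297, 1095, 310, 240, 56, 93, 97, 157 and 22, and the other threshold 2679, 4102, 1701, 2612, 902, 1315, 858, 1291 and 25. Single libraries moved T7 to 655 (without T0 replicate 1), T14-RA against T7-RA to 200 to 217 (without T7-RA replicate 1 or 2 or T14-RA replicate 1) and the difference to 51 to 57 (without T14-RA replicate 1, T7+RA replicate 2 or 3 or T14+RA replicate 1), and the filter at 10 counts moved T14-RA against T7-RA to 209. Igf1 and Igfbp6, with 237 and 73 counts in all, are limited by depth.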
